A study of Arabidopsis thaliana with 4 samples.

Results

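The intervals described here are 381 stretches of Arabidopsis thaliana chromatin bound by TRB1 that lie between 2 close genes. They were chosen from 4995 intervals in the authors' genomic list, which holds positions only. An interval was a member when its centre lay outside every nuclear protein-coding gene and within 500 bp of the ends of at least 2 different protein-coding genes. The members made up 7.63% of the list (exact 95% interval 6.91 to 8.40%, counting error only). Of the other intervals, 875 had 1 gene end within 500 bp, 672 lay farther from any gene, 2135 were centred inside a gene within 500 bp of an end and 932 deeper inside a gene.

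TRB1 is a plant protein of the telomere repeat binding family, with a Myb-type DNA-binding domain and a domain like that of linker histones, and was first known from its binding to telomeric repeats. Copies of such short repeats, called telo boxes, also lie in the promoters of many plant genes for ribosomal proteins and translation factors. Where 2 genes stand close together, the stretch between them can hold the promoters of both genes, the promoter of one and the terminator of the other, or 2 terminators. Arabidopsis genes are closely packed, so such stretches are common.

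The plants were seedlings, 14 days old, kept at 21 °C during a light period of 16 h and at 19 °C during the 8 h of darkness. There were 4 groups with 1 library each. The first held plants that made TRB1 fused to green fluorescent protein under the TRB1 promoter, precipitated on a GFP-binding matrix, and its control was wild-type chromatin on the same matrix. The second used wild-type plants and an antibody against TRB1, and was set against wild-type chromatin handled with no antibody. What is compared here are 4 peak lists of the whole series: the genomic list, a replicate 1 list of 3975 peaks and a replicate 2 list of 7480 peaks with a score per peak, and a list of 24219 peaks from the caller PePr with a p-value per peak. No list carries values per library, so read depth, the signal in the control libraries and the spread between plants are unknown and no test between groups was possible. The labels do not tell from which of the 2 precipitations the replicate 1 list came. Genes came from a gene table without strands, so a gene's start and its end could not be told apart.

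The stretches between close genes carried more interval centres per base than stretches beside a single gene. Outside genes, 2.96 Mb lay within 500 bp of at least 2 genes, and this length held 129 centres per Mb, whereas the 12.8 Mb within 500 bp of 1 gene held 68.3 centres per Mb. The ratio of these densities was 1.88 (exact 95% interval 1.66 to 2.13, counting error only). The replicate 1 list gave a ratio of 2.34, the replicate 2 list one of 2.55 and the PePr list one of 1.72. Of the intervals in the genomic list, 81.3% are whole PePr peaks, and each member overlaps a peak of both replicate lists. These values are therefore not independent of each other.

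Bases near 2 genes also lie closer to a gene end than bases near 1 gene. The densities were therefore set side by side at equal distances from the nearer end. Within 100 bp of a gene end there were 162 centres per Mb with a second gene in reach, against 94.4 with none. From 100 to 200 bp the values were 110 and 78.7 centres per Mb, and from 200 to 300 bp they were 109 and 62.4. From 300 to 400 bp there were 65.1 centres per Mb near 2 or more genes and 50.8 near 1 gene, and from 400 to 500 bp 76.7 and 47.9. The last 2 steps near 2 genes rest on 17 and 6 centres. In each of the 5 steps and each of the 4 lists the density was higher where a second gene lay within 500 bp, with ratios from 1.10 to 2.53.

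**Figure D1:**
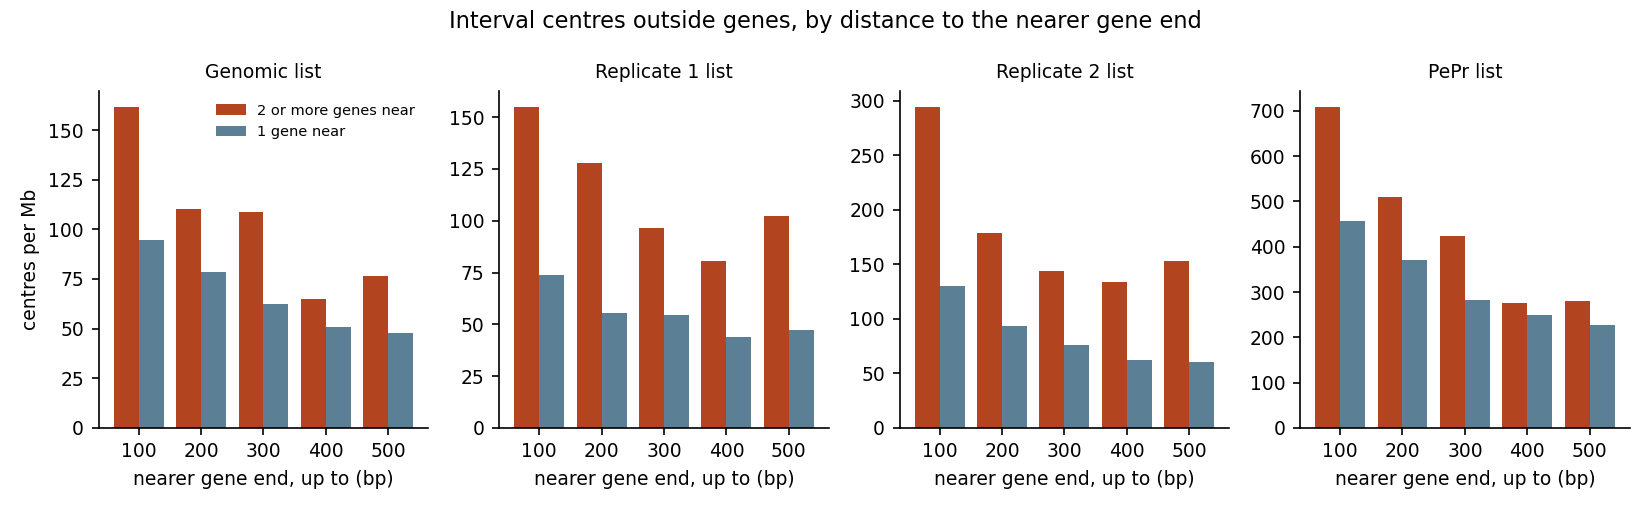
Interval centres per Mb of sequence outside protein-coding genes (vertical axis, own scale in each panel) against the distance from the centre to the nearer gene end in steps of 100 bp (horizontal axis), for bases with 2 or more genes within 500 bp and bases with 1 gene. In all 20 pairs of bars the stretches with a second gene in reach are higher, for example 162 against 94.4 centres per Mb within 100 bp in the genomic list.

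The same stretches were seen from the side of the gaps. There were 23810 gaps between neighbouring protein-coding genes, of which 12736 were at most 1000 bp wide and are called short gaps below. Their median width was 298 bp. A centre that met the rule lay in 375 short gaps, or 2.94% (exact interval 2.66 to 3.25%), and no short gap held a second one. By the same count, 2.94% of short gaps held the centre of a replicate 1 peak, 4.99% that of a replicate 2 peak and 12.6% that of a PePr peak. The share in the genomic list was alike on the 5 chromosomes, from 2.63% on chromosome 4 to 3.32% on chromosome 3, and their exact intervals overlapped.

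Narrow gaps were densest in centres. Counting every centre in a gap, there were 171 per Mb in gaps under 200 bp, 160 in gaps of 200 to under 400 bp, 124 in those up to 600 bp, 110 in those up to 800 bp and 80.0 in those up to 1000 bp. Gaps over 1000 and up to 2000 bp held 71.4 per Mb, gaps up to 5000 bp 42.8 and wider gaps 10.4. Per gap, where wider gaps offer more bases, a centre lay in 1.53% of gaps under 200 bp, in 4.67 to 7.68% in the 4 classes from 200 to 1000 bp and in 8.97 to 10.8% in the 3 wider classes. Coverage by whole intervals, which does not depend on the centre, gave the same order of classes as the density in the genomic and PePr lists. In the replicate lists gaps under 200 bp were covered less than those of 200 to under 400 bp (16.5 and 17.1% in replicate 1, 29.3 and 31.0% in replicate 2). They were also covered less than gaps of 400 to under 600 bp (16.8% in replicate 1 and 29.9% in replicate 2). In replicate 1 the same held against gaps of 600 to under 800 bp (16.8%). Intervals of the genomic list covered 10.2% of the bases in short gaps, 2.39% of those in wider gaps, 7.64% of the first and last 500 bp of genes, 4.72% of all gene bases and 3.96% of all bases of the 5 chromosomes. The PePr list covered 32.5% of short gaps and 13.7% of all bases.

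**Figure D2:**
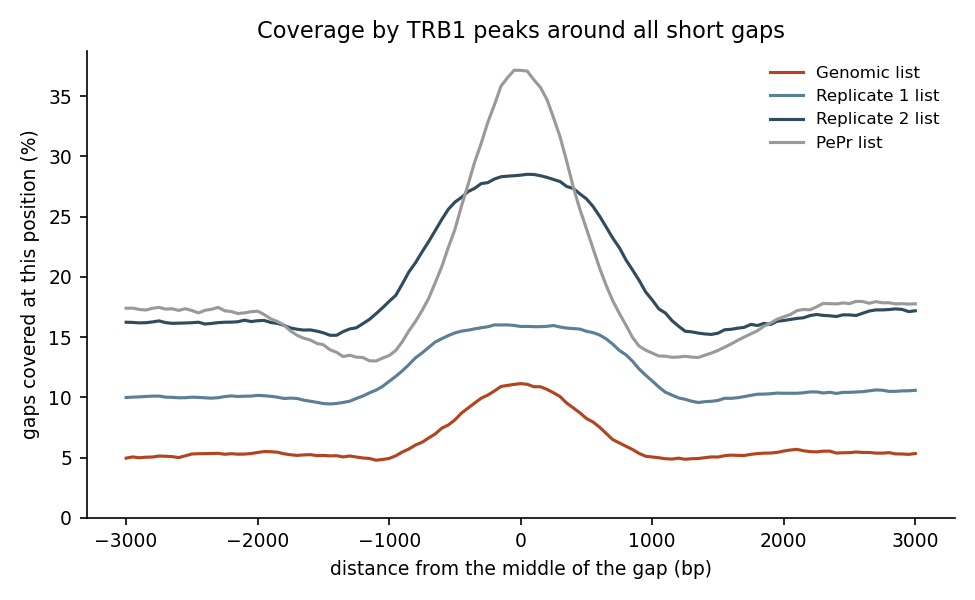
Share of the 12736 short gaps covered by a peak (vertical axis, percent) at each distance from the middle of the gap (horizontal axis, bp), for the 4 lists. Coverage by the genomic list was 11.1% at the middle, against 4.93% and 5.05% at 1000 bp on either side, and the PePr list reached 37.1% at the middle.

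At the 375 members with a gene on both sides the gap was 9 to 962 bp wide, with a median of 377 bp. The other 6 members had both near genes on 1 side, and the gaps around them were 1031 to 5026 bp wide. The centre was a median of 85 bp from the nearer end and 275 bp from the farther one. In gaps under 600 bp the centre did not keep to the middle: its offset was a median of 49.7 to 50.8% of the distance from the middle to the end in the 3 width classes there. In wider gaps the offset was smaller, and there the rule itself holds the centre near the middle.

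The members were mostly wider than the gap that held them. The median width was 1020 bp (26 to 4080 bp), against 850 bp for intervals flanking 1 gene and 850 bp for the whole list. Of the members, 310 of 381 (81.4%, exact interval 77.1 to 85.1%) covered the whole gap and reached into the gene on either side. Among the 375 with genes on both sides this was 82.7%, a further 47 reached into 1 gene and 18 into neither. Genes held 64.3% of the bases of these members, with a median of 321 bp in the left gene and 319 bp in the right one. The share reaching both genes was 98.6% in gaps under 200 bp, 89.9% from 200 to under 400 bp, 72.8% from there to 600 bp, 66.7% to 800 bp and 60.0% to 1000 bp. The peaks of both replicate lists were wider still, with medians of 1998 and 1895 bp at these members, and 366 of 375 in each list (97.6%) spanned the gap.

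**Figure D3:**
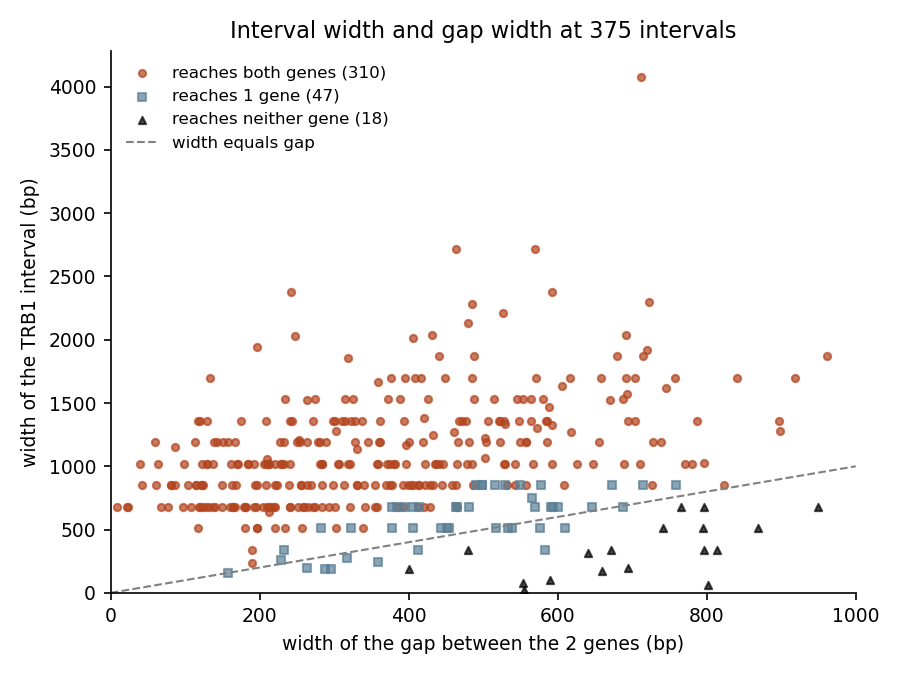
Width of the interval (vertical axis, bp) against the width of the gap between the 2 genes (horizontal axis, bp) for the 375 members with a gene on both sides, marked by whether the interval reaches both genes, 1 gene or neither. Points above the dashed line are wider than their gap, which 343 are (91.5%), and the 18 that reach neither gene lie in gaps with a median of 717.5 bp.

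At the narrow end, the intervals spanned gaps of a few bases. The narrowest gap was the 9 bp between AT3G56020 and AT3G56030, where the interval lay on chromosome 3 at 20790831 to 20791510 and reached 333 bp into one gene and 338 bp into the other. Its score was 2566 in replicate 1 and 3100 in replicate 2. The next were the 22 bp between AT1G74060 and AT1G74070, with scores of 1757 and 3100, and the 23 bp between AT2G47680 and AT2G47690, with scores of 905 and 322. All 3 of these intervals were 680 bp wide and covered both gene ends at once. At the wide end, an interval of 1870 bp filled the 962 bp between TUB4, which encodes a beta-tubulin, and AT5G44345. In the 949 bp beside TT4, which encodes chalcone synthase, the first enzyme of flavonoid synthesis, the interval was 680 bp wide and reached neither gene. The gap of 918 bp between Phox4 and AT4G32080 was covered by an interval of 1700 bp.

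The width of an interval depends on how the lists were made. Of the members, 328 (86.1%) were whole peaks of the PePr list, and 328 had a width that is a multiple of 170 bp, so ends are known only to such steps. The rest did not match a whole PePr peak, and how their ends were set is not stated. Of all members, 11 were under 200 bp wide. The narrowest, 26 bp, lay in the 555 bp between AT2G34610 and AT2G34620.

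Scores were read from the replicate peak that overlapped a member most, on the authors' own scale, and compared within a list only. In the replicate 2 list the median score was 1754 at members, 1152 at intervals flanking 1 gene, 1507 at intervals inside a gene near an end, 1955 deeper inside genes and 1447 over all intervals. In the replicate 1 list the median was 2214 at members, 2118 at intervals flanking 1 gene, 1860 inside a gene near an end, 1973 deeper inside genes and 1985 over all intervals. At intervals far from genes the medians were 2217 in replicate 1, next to the members' 2214, and 835 in replicate 2. The exact interval of the members' median was 1957 to 2525 in replicate 1 and 1471 to 1977 in replicate 2. It treats members as separate, although the 381 members fell on 377 different peaks in either list, and it holds no spread between plants. No test of the difference between members and intervals flanking 1 gene was run, since each group has 1 library. In the replicate 1 list the order of members and intervals flanking 1 gene was not stable: among whole PePr peaks the medians were 2187 at members and 2216 at intervals flanking 1 gene.

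Many scores were tied at 3100, close to the highest scores at members (3221 in replicate 1 and 3201 in replicate 2). A score of at least 3100 stood at 134 members in replicate 1 (35.2%, exact interval 30.4 to 40.2%), against 35.9% of intervals flanking 1 gene, and at 108 members in replicate 2 (28.3%, 23.9 to 33.2%), against 20.2%. It stood in both lists at 64 members (16.8%), against 14.5% of intervals flanking 1 gene and 15.7% of all intervals. Members did not have the highest such share: far from genes it was 39.3% in replicate 1, and deeper inside genes 30.8% in replicate 2 and 19.5% in both lists. Over the members, Spearman's rho between the scores of both lists was 0.44, and over all intervals 0.38, given as a description only. Members had a higher median width than the other kinds of interval, but the upper quartile was 1270 bp at members and 1530 bp deeper inside genes. Intervals over 1190 bp had the highest median score of the 4 width classes in both lists. This held at members, at intervals flanking 1 gene and inside genes near an end. Among intervals over 510 and up to 850 bp the median replicate 2 score was 1226 at 132 members and 923 at 328 intervals flanking 1 gene, while it was 1408 inside genes near an end. Among intervals over 1190 bp it was 2859 at 100 members and 1842 at 180 intervals flanking 1 gene. The replicate 1 medians ran the other way between members and intervals flanking 1 gene from 510 to 850 bp (2057 and 2282) and from there to 1190 bp (1921 and 1976), and were higher at members in the narrowest and the widest class.

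**Figure D4:**
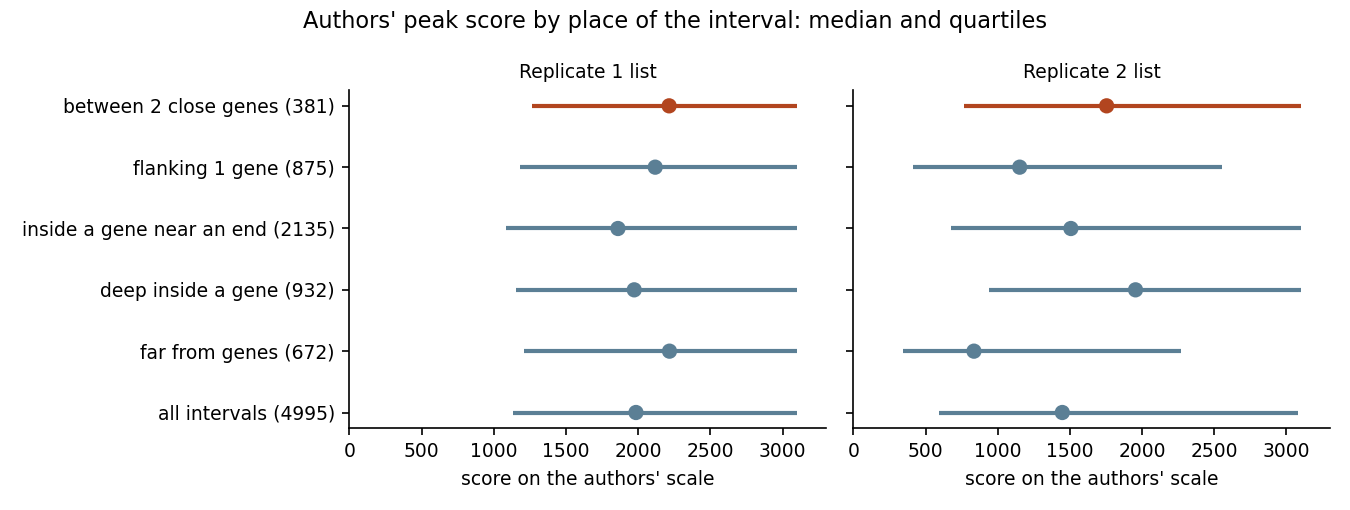
Authors' peak score (horizontal axis, own scale of each list) by the place of the interval, with the median as a point and the quartiles as a line, and the number of intervals in brackets. Members have a median of 1754 in replicate 2, against 1152 at intervals flanking 1 gene, while in replicate 1 the medians are 2214 and 2118.

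The 8 members of highest mean rank over both replicate lists lay beside genes of several kinds. The first, at 498441 to 499800 on chromosome 3, filled the 301 bp between AT3G02420 and AT3G02430 and had scores of 3100.5 and 3100. The second lay between PGM2, a phosphoglucomutase gene, and AT1G70740, with scores of 3100 and 3201. The next 2 lay on either side of the small gene AT3G18120, one toward RACK1C_AT, which encodes a scaffold protein of the small ribosomal subunit, and one toward EMB1270. Both overlapped the same replicate peaks, with scores of 3100 and 3196, so they are not separate peaks there, although they are in the PePr list. The last 4 were tied at 3100 in both lists and were ranked by the PePr p-value. They lay between AT2G02890 and AT2G02910, between AT5G52620 and MEF1, an editing factor of mitochondrial RNA, between dNK, a deoxynucleoside kinase gene, and TFIIIA, and between MEE9 and AGL56. TFIIIA is the transcription factor that RNA polymerase III needs at the 5S ribosomal RNA genes. The interval at TFIIIA was 1700 bp wide and reached 665 bp into that gene and 419 bp into dNK.

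At some members another gene lay inside the gap, and the most frequent kind was a gene for a transfer RNA. Of the 381 members, 40 (10.5%, exact interval 7.61 to 14.0%) had another annotated gene in the gap: a tRNA gene at 22, a long non-coding RNA gene at 11 and a snoRNA gene at 4. Of all short gaps, 698 (5.48%) hold another gene, and 38 of these held a centre (5.44%, exact interval 3.88 to 7.40%). Their median width was 573.5 bp, against 281 bp for short gaps with no other gene. At 600 bp or more the shares holding a centre were 1.85% with another gene and 1.87% without. Of 219 short gaps with a tRNA gene, 22 held a centre (10.0%, exact interval 6.40 to 14.8%), against 337 of 12038 short gaps with no other gene (2.80%, 2.51 to 3.11%). With replicate 1 peaks the shares were 9.59 and 2.80%, with replicate 2 peaks 13.7 and 4.78%, and with PePr peaks 31.5 and 12.2%. The contrast was smaller when any overlap of 1 bp with the gap counted in place of the centre. The genomic list then touched 21.5% of gaps with a tRNA gene and 13.03% of those with no other gene. By overlap the shares were 27.4 and 16.7% in replicate 1, 32.9 and 30.5% in replicate 2 and 70.8 and 48.6% in the PePr list. Transfer RNA genes are transcribed by RNA polymerase III from promoter elements inside the gene. This comparison was added after the classes of the genes in the gaps had been seen.

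Gaps with a tRNA gene are wider, with a median of 415 bp against 281 bp for gaps with no other gene, so they were also compared within classes of width. From 200 to under 400 bp, 9 of 73 gaps with a tRNA gene held a centre (12.3%, exact interval 5.80 to 22.1%), against 4.38% of gaps with no other gene. From 400 to under 600 bp it was 11 of 56 (19.6%, 10.2 to 32.4%), against 5.20%. The remaining 2 members with a tRNA gene lay in a gap of 196 bp and in one of 728 bp, and in gaps of 600 to 1000 bp the shares were 1.67 and 1.87%. The dependence on width was different by overlap of 1 bp. In gaps of 600 to 1000 bp the genomic list touched 25% with a tRNA gene and 13.8% with no other gene. Under 200 bp these shares were 10% and 11.97%, from 200 to under 400 bp 20.5 and 13.5%, and from 400 to under 600 bp 25% and 14.1%. Short gaps with another gene but no tRNA gene held a centre in 3.34% of cases (1.92 to 5.37%), and the 320 with a long non-coding RNA gene in 3.44% (1.73 to 6.07%), near the 2.80% of gaps with no other gene. Of 13 short gaps with a snoRNA gene, 4 held a centre (30.8%, 9.09 to 61.4%), which is too few for more than a value.

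All 22 tRNA genes lay wholly inside the member, with the centre a median of 116 bp (1.5 to 258.5 bp) from the middle of the tRNA gene. The tRNA gene and the centre were both taken from the same gap, with a median width of 436 bp here. Of members with genes on both sides, 82.7% covered the whole gap. The overlap was thus largely set in advance, and no expected distance was computed. By the synonyms of the gene table they served 12 amino acids, among them alanine and leucine with 4 genes each and methionine with 3. The 4 highest of these members had a score of 3100 in both lists and lay between NRP1 and AT1G74580 with a leucine tRNA gene, between AT2G02890 and AT2G02910 with an alanine tRNA gene, between AT3G11280 and AT3G11290 with an arginine tRNA gene, and between ARP5 and AT3G12390 with a lysine tRNA gene. The lowest by mean rank, between ACHT5 and AT5G61450, had 912 in replicate 1 and 479 in replicate 2. The lowest single scores were 679 in replicate 1, between AT5G06120 and AT5G06130, and 209 in replicate 2, between AT2G22100 and AT2G22120. The median score of members with a tRNA gene was 2932 in replicate 1 and 1938 in replicate 2, against 2135 and 1704 at the 359 other members, and the median width was 1020 bp in both.

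The members stood beside 759 different protein-coding genes, 7 of which were near 2 members, and 275 of them (36.2%) had a symbol, close to the 37.8% of all genes that have one. Of 18998 genes that border a short gap, 3.95% lay within 500 bp of a member, and of all 27444 genes 2.77%. The gene lists below were found by words in the symbols and synonyms, some of them names of particular genes. Each list therefore holds only part of its family. Lists are described by their counts and, for the larger ones, by the median scores of the intervals beside them, with no test of enrichment.

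Genes for cytosolic ribosomal proteins, the proteins of the main cellular ribosome, lay beside a member in 9 of 67 cases that border a short gap (13.4%, exact interval 6.33 to 24.0%), against the 3.95% of all such genes. The word search had also caught genes of other kinds, and with these taken out by hand it was 9 of 36 (25.0%, 12.1 to 42.2%). The genes named here encode proteins of the large subunit. RPL3B, RPL24A and BBC1, a gene for ribosomal protein L13, had a score of 3100 in both lists. RPL24A stood 477 bp from AT2G36630, and the interval on chromosome 2 at 15351511 to 15352870 reached 503 bp into RPL24A. STV1, the sister gene of RPL24A, lay beside a member too, 169 bp from SRPK4, a kinase gene, with scores of 1578 and 2684. RPL27AB had 2886 and 3100 and stood in a cluster of 3 genes within 500 bp, RPL10B had 2907 and 1821, and RPL23AB had 1547 and 3100. AT4G14320, listed as RPL36aB, had 1303 and 3100. Over the list the median score was 2886 in replicate 1 and 3100 in replicate 2, against medians of 2214 and 1754 over all 381 members. The gaps at these genes were 129 to 704 bp wide. Of 15 organellar ribosomal protein genes that border a short gap, none lay beside a member (exact interval up to 21.8%).

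The list of ribosome biogenesis and nucleolar proteins had the highest share among the 15 lists, with 5 of 16 genes that border a short gap (31.2%, exact interval 11.0 to 58.7%). Some of its genes were found only by a word for the nucleolus. Other search terms were names of particular genes or small families, among them fibrillarin, DIM1, PUM23 and TOZ. These terms were chosen with earlier results of these data known, so the share is not an independent rate. FIB1 encodes fibrillarin, the methyltransferase of small nucleolar ribonucleoproteins, and the interval between EDA41 and FIB1 had 3100 in both lists. PUM23, a nucleolar RNA-binding protein needed for ribosomal RNA processing, shared its interval with ALAAT2 (3100 and 2985), and TOZ, a nucleolar WD-repeat protein, with ITPK1 (2301 and 3161). AT1G77570, listed by its synonym as restricted to the nucleolus, had 2888 and 1920, and a glutamine tRNA gene lies in its gap. DIM1B, of the ribosomal RNA dimethylase family, had 1832 and 1051. The median scores of these 5 intervals were 2888 and 2985.

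The other lists of the translation machinery were small. Of 16 genes for aminoacyl-tRNA synthetases that border a short gap, 2 lay beside a member (12.5%, 1.55 to 38.3%): SYNC1, for the asparagine enzyme, with 3100 and 2703, and OVA5, for an organellar lysine enzyme, with 3221 and 918. Of 8 elongation and release factor genes 1 did, ERF1-2, which encodes a factor that ends translation at stop codons, with 1754 and 3131. Of 26 initiation factor genes 1 did (3.85%, 0.0973 to 19.6%), EIF2 BETA, whose interval of 2295 bp spanned the 722 bp to the kinase gene TSL with 1057 and 1860. These 3 lists were joined with the cytosolic ribosomal proteins and the ribosome biogenesis and nucleolar proteins. Over the 5 lists together, 18 of 153 listed genes lay beside a member (11.8%), against 2.77% of all genes. With genes of other kinds taken out by hand it was 18 of 112 (16.1%). This step took out none of the 18 beside a member, and kept AT1G77570, which was listed only by its synonym. Here genes that border no short gap are counted too, and the organellar ribosomal proteins are not. The synthetase list, like that of ribosome biogenesis, was found partly by names of particular genes, so the joint share is not an independent rate either.

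Among the remaining lists, splicing proteins had 4 of 35 (11.4%, 3.20 to 26.7%), F-box proteins 2 of 17, histones 3 of 29, pentatricopeptide repeat proteins 3 of 35 and chaperones 3 of 48. Photosystem and light-harvesting proteins had 2 of 46, protein kinases 9 of 230 (3.91%, 1.80 to 7.30%), zinc finger and MYB factors 3 of 77 and proteasome subunits 1 of 46. With replicate peaks histones had 1 gene in either list. The exact intervals of these 9 lists all held the 3.95% of all genes that border a short gap. The medians of the 4 splicing intervals were 3100 and 2391, and those of the 8 kinase intervals 1453 and 1617. The highest splicing gene was U1A, for a protein of the U1 particle, with 3100 in both lists, followed by U2A', which stands 139 bp from CDC5, a Myb-type gene whose protein acts in the spliceosome, with 3100 and 2690. A replication-type histone H3 gene, AT1G09200, shared its interval with the calreticulin gene CRT1b across 303 bp, with 3100 in replicate 1 and 213 in replicate 2. MEF1 and OTP86, both for organellar RNA editing, were the highest of the pentatricopeptide list, OTP86 with 3100 and 2806. PSBO2, for a protein of the oxygen-evolving complex of photosystem II, had 3100 in both lists, and the interval reached 37 bp into it.

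**Figure D5:**
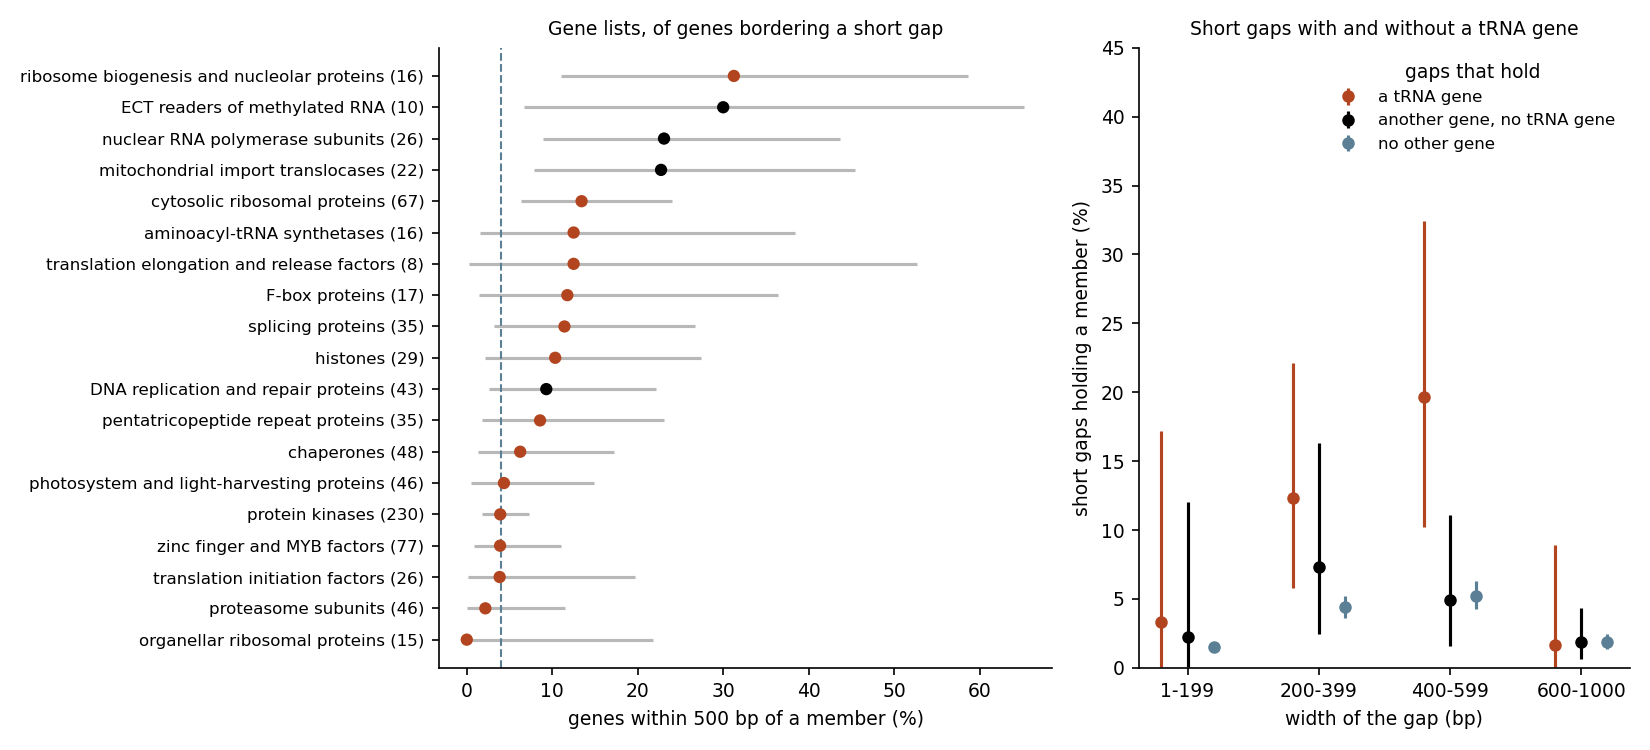
Left, share of each gene list that lies within 500 bp of a member (horizontal axis, percent of the genes that border a short gap, their number in brackets), with exact 95% intervals; the dashed line is the 3.95% of all such genes and black points are lists added after the gene names had been read. Right, share of short gaps holding a member (vertical axis, percent) by gap width (horizontal axis, bp) for gaps with a tRNA gene, with another gene but no tRNA gene, and with no other gene, for example 19.6, 4.90 and 5.20% from 400 to under 600 bp.

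At a few members both neighbours carried the same family name. Both neighbours had a symbol at 1982 short gaps, and 2.88% of these held a centre, whereas 6 of 277 short gaps between genes of 1 family name did (2.17%, exact interval 0.799 to 4.65%). The 6 pairs were HMGB2 and HMGB3, SCRL4 and SCRL5, GSTF9 and GSTF10, NAC050 and NAC052, CHX4 and CHX12, and BGLU27 and BGLU16. HMGB2 and HMGB3 encode high-mobility-group chromatin proteins and stand 377 bp apart, and NAC050 and NAC052 encode transcription factors and stand 129 bp apart.

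At 4 members, 3 genes lay within 500 bp of the centre. These were at AT1G69460, AT1G69470 and AT1G69480 with 3100 in both lists, at RPL27AB and its neighbours, at TRM11, AT3G26430 and ATRZ-1A with 2457 and 2192, and at RPB5D, AT2G41342 and AUG1 with 1636 and 1450.

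The limit of 500 bp falls in a continuous range of distances. The members just inside it were the interval between AT5G53620 and AT5G53635, whose farther gene end lay 498 bp from the centre, with scores of 1322 and 2334, and the interval between EIN2, a central gene of ethylene signalling, and IDH-V, at 496 bp, with 3100 and 3065. Just outside, at 501 bp, were an interval between AT1G04670 and AT1G04680 with 1654 and 1529 and one between AT1G11655 and AT1G11660 with 3100 and 494. There were 87 intervals outside genes with the second gene end at 400 to 500 bp and 77 with it at 500 to 600 bp. Their median scores were 2278 and 2936 in replicate 1, and 2037 and 1800 in replicate 2.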

How the data were processed

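Chromatin was sheared to 250 to 500 bp, and libraries from fragments of 270 to 300 bp were sequenced with single-end reads of 50 bp, per the labels' protocols. Bowtie2 version 2.2.2, SAMtools, bedtools and MACS and the builds TAIR9 and TAIR10 are named without roles, per the submitters' processing notes; PePr is named only by a list. The thresholds, the control of each call and any pooling are not stated in the labels or lists. The authors deposited a score per peak, on an unstated scale, in the replicate 1 and replicate 2 lists, and a p-value per peak in the PePr list. Interval positions are the authors', counted from 1. Genes came from a RefSeq table of TAIR10.1, used for names and distances only, so a difference between builds would shift distances. It holds 625 tRNA genes.

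Centres (the mean of start and end), gaps and overlaps were computed with Python 3.11.15 and pandas 2.3.3 and tested on simulated data. Exact (Clopper-Pearson) 95% intervals cover counting error only, and PCR reads are not independent molecules. The intervals of medians come from order statistics. Mean rank is the mean percentile of both scores. Genes were named by a rule: the 8 members of highest mean rank, members beside listed genes, the narrowest and widest gaps, members with 3 genes and those at the 500 bp limit; the family pairs and the members with a tRNA gene were named after their values were seen. Members, lists and alternatives were chosen with earlier results of these data known. A further result that falls under this rule is not reported here.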

Additional observations from a re-analysis of the deposited data

How the results depend on the processing

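Distances of 200 and 1000 bp gave 130 and 742 members in place of 381, and the same rule found 655 members among replicate 2 peaks and 1658 among PePr peaks. Short gaps holding a centre numbered 636 with replicate 2 peaks, 1599 with PePr peaks, 216 with the 2498 intervals of higher mean rank, and 1693 when any overlap of 1 bp counted, against 375. The replicate 1 difference between members and intervals flanking 1 gene, 96.5 in the medians, was -29.3 among whole PePr peaks, and the share below 3100 was 0.715 percentage points higher at members; the cause was not tested. The replicate 2 difference of 602 kept its direction in all 3 alternatives. One of these, the highest score among overlapping peaks, gave the same medians as the main setting and so could not move it. The density ratio was 2.34 and 2.55 in the replicate lists and 1.76 and 1.93 at 200 and 1000 bp. The share of tRNA gaps holding a centre was 31.5% in the PePr list and 15.5% in gaps of 200 to under 600 bp, where gaps with no other gene had 4.73%. The share reaching both genes, 81.4%, was 83.5% among whole PePr peaks, and the 18 genes of the translation lists numbered 18 with replicate 1 peaks and 26 with replicate 2 peaks. Single lists moved more: with replicate 1 and replicate 2 peaks initiation factors had 3 and 4 genes in place of 1, elongation and release factors 0 and 1 in place of 1, aminoacyl-tRNA synthetases 2 and 5 in place of 2, histones 1 and 1 in place of 3, chaperones 5 and 6 in place of 3, splicing proteins 3 and 7 in place of 4, zinc finger and MYB factors 1 and 2 in place of 3, and protein kinases 5 and 11 in place of 9. Photosystem and light-harvesting proteins and F-box proteins had 1 gene each in place of 2 with replicate 2 peaks, and proteasome subunits 2 in place of 1. The alternatives for the density ratio and tRNA genes were chosen after seeing the data. Gap orientation and promoter motifs were not run, since no strand or sequence was used here. No paired analysis was possible because each group has 1 library and the lists have no columns per library; for the same reason no library could be left out.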

Other observations

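Lists added after the names beside the members had been read give a description only. Of 26 genes for subunits of nuclear RNA polymerases that border a short gap, 6 lay beside a member (23.1%, exact interval 8.97 to 43.6%), against the 3.95% of all such genes. They were NRPB1, the largest subunit of RNA polymerase II, NRPC1, the largest subunit of RNA polymerase III, and NRPB5, NRPB11, RPB5D and RPC14. NRPC1 had scores of 3100 in replicate 1 and 2169 in replicate 2, and NRPB1, the lowest of them, 673 and 734. Of 22 genes for mitochondrial import translocases, 5 lay beside a member (22.7%, 7.82 to 45.4%): TIM10, TIM17-3, TIM23-3, TOM20-2 and TOM22-I. TIM10 and RPC14 are neighbours 115 bp apart, under 1 interval of 850 bp with 3100 in both lists, and TOM22-I stands 117 bp from the splicing gene PRP39, with 1406 and 1791.

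Of 10 ECT genes, whose proteins bind methylated adenosine in messenger RNA, 3 lay beside a member (30.0%, 6.67 to 65.2%): ECT6 with 3100 and 3032, ECT3 with 2394 and 2347, and ECT4 with 2899 and 902. DNA replication and repair genes had 4 of 43 (9.30%, 2.59 to 22.1%), of which LIG1, for DNA ligase, had 3100 in both lists and RECQ4B, for a helicase, 3043 and 3100.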
